A study of Mus musculus with 8 samples.

Results

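The transcription factors that build and maintain heart muscle were read here as 10 genes: Gata4, Gata6, Nkx2-5, Tbx5, Tbx20, Hand1, Hand2, Mef2a, Mef2c and Mef2d. Every non-control probe on the array that carries one of these gene names was taken, which gave 17 of 39429 probes. Of these, 14 probes from 9 genes were bright enough to test (well above background in at least 4 of the 8 mice), and both Hand1 probes and 1 of the 3 Tbx20 probes were not. RNA came from the left ventricle (septum, free wall and apex) of male mice of the inbred C57Bl/6j strain. Starting at 8 weeks of age, 4 mice ate chow with 0.4% sodium (normal salt) and 4 ate chow with 0.05% sodium (low salt) for 8 weeks, and all were killed at 16 weeks. The arrays were 2-colour Agilent mouse arrays, each shared by 2 mice of the same diet, one labelled Cy3 and the other Cy5.

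These factors work as a network. Gata4 and Gata6 are zinc finger proteins, Nkx2-5 is a homeodomain protein, Tbx5 and Tbx20 are T-box proteins, Hand1 and Hand2 are basic helix-loop-helix proteins, and the Mef2 proteins are MADS-box factors. They bind one another and neighbouring DNA sites in front of muscle and natriuretic peptide genes. In the adult ventricle they keep contractile and ion channel genes expressed, and Gata4 and the Mef2 proteins also take part in the response to pressure load, in which the Mef2 proteins are held back by class II histone deacetylases and released by calcium-dependent kinases.

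The normalised level of 9 of these 10 genes was measurable, and no probe passed the test for diet (0 of 14, limma, adjusted p under 0.05; 0 of 14 also had an unadjusted p under 0.05). Over the whole array 0.812% of the probes passed it, 0.778% as higher and 0.0346% as lower on low salt, and 11.1% had an unadjusted p under 0.05. The largest difference among the 14 probes was 0.27 on the log2 scale, in Gata4. The 95% interval of the difference stayed inside a 2-fold change in either direction for 14 of 14 probes and inside a 1.5-fold change for 10 of 14. The median size of the difference was 0.16 over the 14 probes and 0.13 over all 23144 probes tested, of which 10% differed by more than 0.42. On the brightest probe of each gene, 4 genes were higher and 5 lower on low salt, with a median of -0.03 against 0.01 over all probes.

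**Figure D1:**
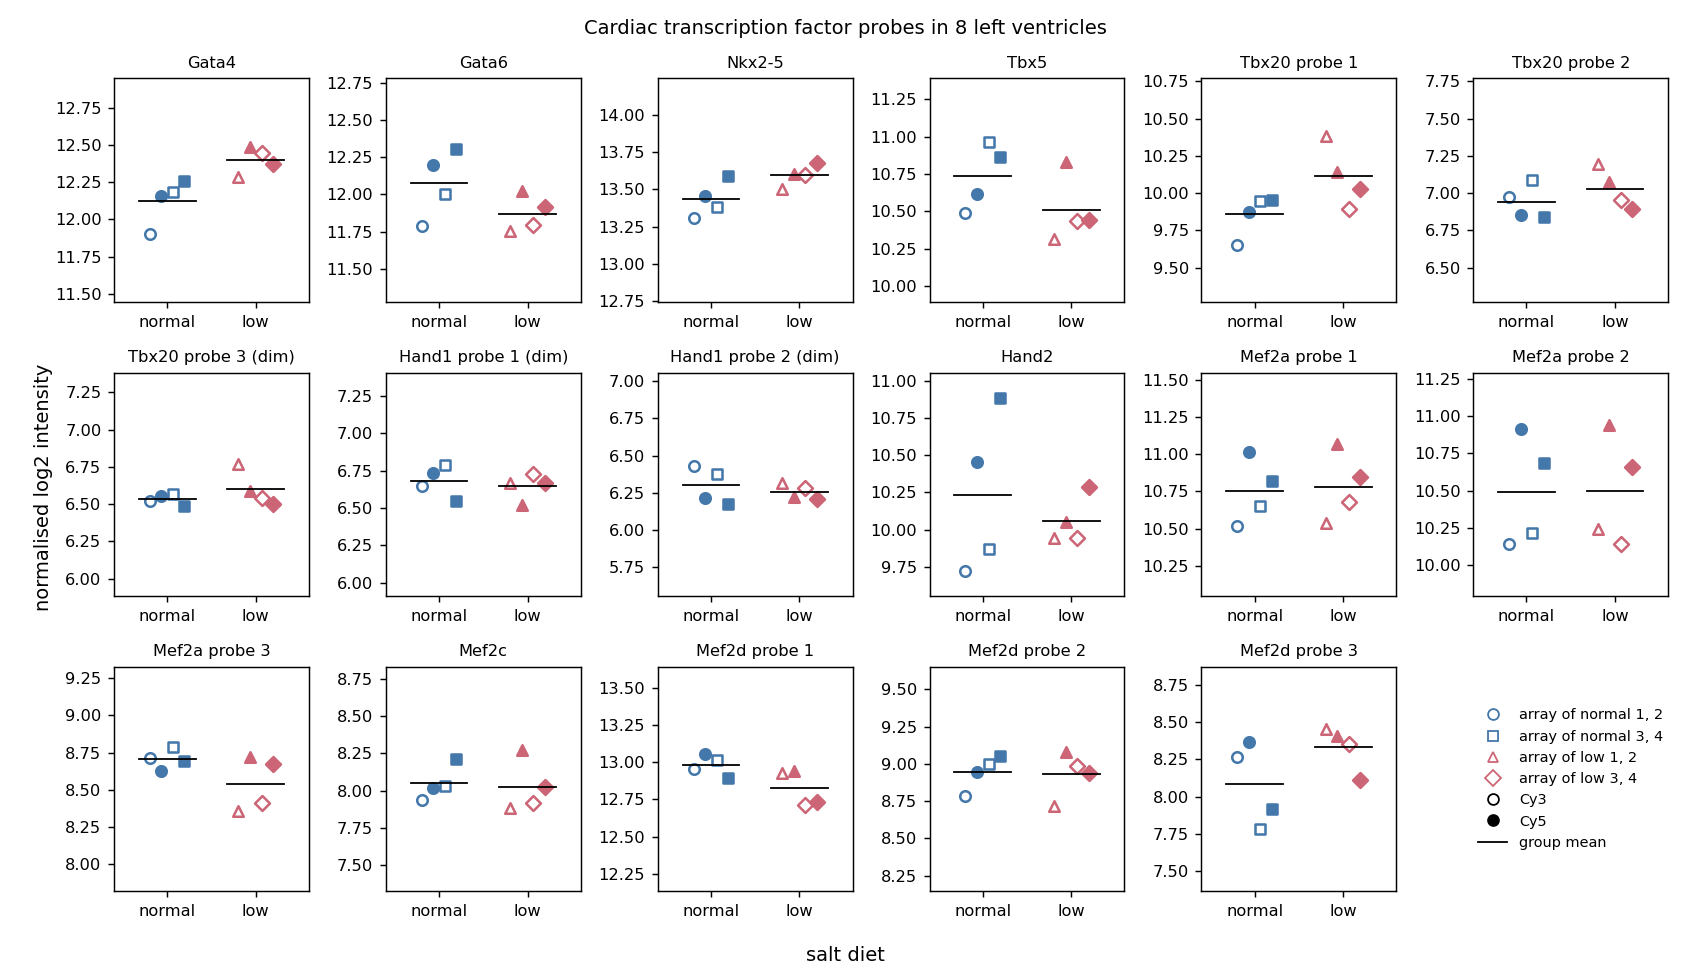
Normalised log2 intensity (y axis, each panel spanning the same number of log2 units) of the 17 probes in the 4 normal salt and 4 low salt mice (x axis). Marker shape gives the array, open and filled symbols give Cy3 and Cy5, and the line is the group mean. Gata4 is the one tested probe in which the diets do not overlap.

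The 2 mice of an array shared their hybridisation, so diet differed between arrays and dye within them. All 4 arrays lay on 1 slide, with 2 arrays per diet. Across probes, array mates correlated at 0.994 to 0.996, mice that shared only a diet at 0.983 to 0.990, and mice of unlike diet at 0.979 to 0.990. The median spot intensity ranged from 116 to 147 over the mice, the median background from 15.5 to 33.5, and 53.0% to 66.3% of spots were well above background. The scan had broad areas where the low salt and normal salt arrays differed for neighbouring spots of unrelated genes, and 8.68% of probes lay where that local difference exceeded 0.2. None of the 17 probes of the cardiac factors lay there, and at the 14 tested ones the local difference was at most 0.12. Cardiomyocyte markers marked the tissue as heart muscle: 12 of 12 (such as Myh6, Actc1 and Tnnt2) were measured, with a summed log2 level of 20.85 to 21.59 on normal salt and 20.71 to 21.37 on low salt.

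Gata4 and Gata6, partly interchangeable activators of cardiac genes, lay on opposite sides of 0. The Gata4 probe (mm9, chr14:63817858-63817917, minus strand) read 11.90, 12.15, 12.19 and 12.26 in normal salt mice 1 to 4 and 12.28, 12.49, 12.45 and 12.37 in low salt mice 1 to 4. Every low salt mouse was above every normal salt mouse, with low salt mouse 1 and normal mouse 4 closest. The difference was 0.27 ± 0.13 (SE; a fold of 1.21), with a 95% interval from -0.02 to 0.56 and an adjusted p of 0.475 (limma). It was 0.32 between the Cy3 mice and 0.22 between the Cy5 mice. Groups did not overlap in 1 of the 14 probes, this one, and in 12.6% of the probes measured in all mice of the array.

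The single Gata6 probe read 11.79, 12.20, 12.00 and 12.31 on normal salt and 11.75, 12.03, 11.80 and 11.91 on low salt. The groups overlapped, and the highest value of each array was that of its Cy5 mouse. The diet difference was -0.20 ± 0.11, with a 95% interval from -0.46 to 0.06 and an adjusted p of 0.538. Cy5 mice were 0.28 above Cy3 mice (limma, adjusted p = 0.042), a difference of dye that the fit takes out of the diet term.

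Nkx2-5, the homeodomain factor that pairs with Gata4 on cardiac promoters, read 13.31, 13.46, 13.38 and 13.59 on normal salt and 13.50, 13.60, 13.60 and 13.68 on low salt (mm9, chr17:26975621-26975680, minus strand). Low salt mice 2, 3 and 4 were above every normal salt mouse, and low salt mouse 1 was not. This was the narrowest interval among the cardiac factors: 0.16 ± 0.09, from -0.06 to 0.38, with an adjusted p of 0.554. Any change in Nkx2-5 RNA past 1.30-fold upward lies outside that interval.

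Of the T-box factors, Tbx5 is best known for the atria, the left ventricle and the conduction system, and Tbx20 for keeping the adult ventricle contractile. Tbx5 read 10.49, 10.61, 10.97 and 10.87 on normal salt and 10.31, 10.83, 10.44 and 10.44 on low salt (mm9, chr5:120334087-120334146, plus strand). Low salt mice 1, 3 and 4 were below every normal salt mouse, while low salt mouse 2 lay above normal mice 1 and 2 and below normal mice 3 and 4. The difference was -0.23 ± 0.20, with a 95% interval from -0.68 to 0.22 and an adjusted p of 0.680. Leaving out each mouse in turn moved it between -0.35 and -0.13, and leaving out low salt mouse 2 gave the most negative value.

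Tbx5 put the mice in nearly the same order as the mean level of atrial muscle markers did, under either diet. Over the 8 atrial markers measured of 9 (among them the myosin light chains Myl4 and Myl7 and the calcium pump inhibitor sarcolipin, Sln), the mean log2 level was 10.01, 11.04, 11.76 and 11.63 on normal salt and 9.71, 10.99, 10.19 and 10.38 on low salt. Low salt mouse 1 was lowest in both Tbx5 and this mean, and normal mice 3 and 4 were highest in both. Single markers did not all share that order. Nppa read 16.09 in low salt mouse 1 and 14.25 in normal mouse 1, and Kcna5 was lowest in low salt mouse 3 (8.16). The summed log2 level of the markers was 14.78 in normal mouse 1 and 16.18 in low salt mouse 1. Nppa was the brightest marker in both mice, so that sum largely repeats the Nppa values. Across the 8 mice Pearson's r was 0.95 (exact permutation p = 0.00062) and Spearman's rho was 0.90 (exact permutation p = 0.00456). The permutations, here and in the next paragraph, shuffled all 8 mice freely. They did not keep to array, dye or diet, so these p values treat mice that share an array as independent. Without the 2 mice farthest from the median atrial level (normal mouse 3 and low salt mouse 1) r was 0.89, and with the diet means removed it was 0.93. Such values were not particular to Tbx5 or to atrial markers. With the diet means removed, atrial markers had r = 0.92 with Gata4, 0.89 with Mef2d probe 2 and 0.76 with Gata6, but -0.60 with Mef2d probe 3. Without the same 2 mice Gata6 had r = 0.97. Tbx5 had r = 0.95 with conduction system markers when the diet means were removed. In 4 of 4 arrays the mouse with the higher mean atrial level had more Tbx5 RNA. Sln itself ranged from 8.79 in low salt mouse 1 to 13.82 in normal mouse 3. The relation of Tbx5 with atrial markers was noticed after the values were seen, and 154 pairs of 14 probes and 11 marker lists were computed. None passed after Benjamini-Hochberg adjustment (0 of 154, with 22 of 154 at an unadjusted exact p under 0.05), and that of Tbx5 with atrial markers had an adjusted p of 0.0955. The part of atrial RNA in the Tbx5 difference between diets was not tested, and in bulk tissue fewer cells of a type cannot be told apart from less RNA per cell.

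The next strongest of these relations joined Gata4 to lower endothelial marker levels, at r = -0.92 (exact permutation p = 0.00124; adjusted p = 0.0955) and rho = -0.90. Both measures differed between the diets without overlap, and with the diet means removed r was -0.79. It was -0.93 within normal salt and -0.50 within low salt. Without the mice farthest from the median endothelial level (normal mouse 1 and low salt mouse 2) r was -0.77. With the diet means removed, Gata6 had r = -0.80 with the same markers and Tbx20 probe 2 had 0.03. Over all mice Gata6 had r = 0.06. Gata4 also had r = -0.86 with endocardial markers. Of the 12 endothelial markers 12 were measured, 10 were lower on low salt and 0 passed the test, with a median difference of -0.41. An unadjusted p under 0.05 was found for 5 of 12 markers, against 11.1% of all probes tested. Their summed log2 level was 17.11 to 17.54 on normal salt and 16.57 to 16.87 on low salt.

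**Figure D2:**
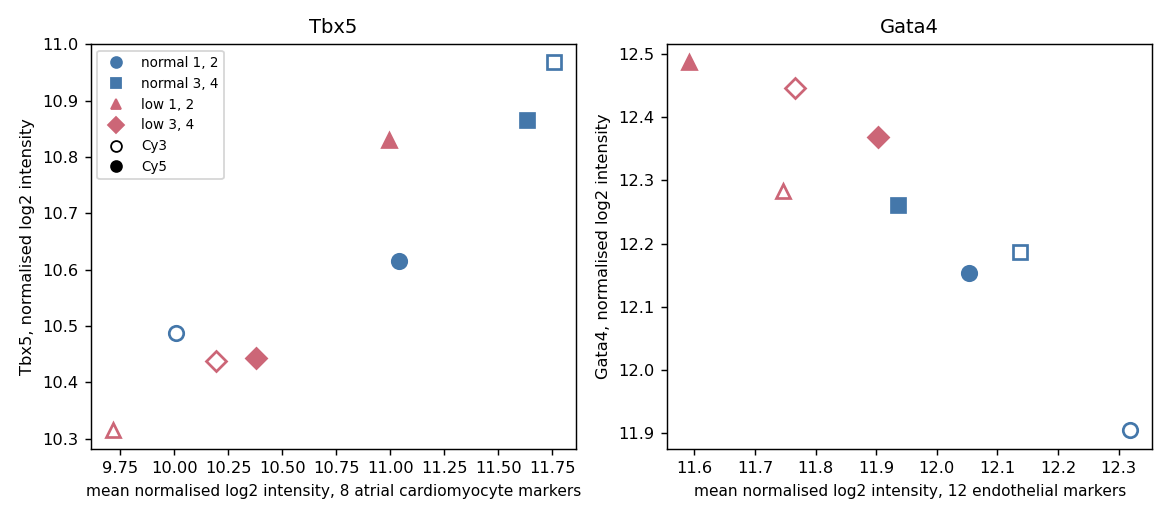
Left, Tbx5 (y axis) against the mean of 8 atrial cardiomyocyte markers (x axis), and right, Gata4 (y axis) against the mean of 12 endothelial markers (x axis), all as normalised log2 intensity. Each point is 1 mouse, with shape for the array, blue for normal salt, red for low salt, and open or filled for Cy3 or Cy5. Tbx5 is higher where the atrial level is higher, in both diets, and Gata4 is higher where the endothelial level is lower.

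Tbx20 was read by 3 probes that lie far apart along its minus-strand gene. Probe 1 (mm9, chr9:24527750-24527809) read 9.65, 9.88, 9.95 and 9.95 on normal salt and 10.39, 10.14, 9.90 and 10.03 on low salt. Low salt mice 1, 2 and 4 were above every normal salt mouse and low salt mouse 3 was not, with a difference of 0.26 ± 0.17, a 95% interval from -0.12 to 0.63 and an adjusted p of 0.583. Probe 2 (chr9:24563177-24563236) cleared the background in all 4 mice on normal chow and in 3 of the 4 on low salt, and its difference was 0.09 ± 0.11 (adjusted p = 0.774). Probe 3 (chr9:24544715-24544774) was well above background in 1 of 8 mice and was not tested. The array design assigns each of the 3 probes to a different transcript of the gene.

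Hand1 RNA was not above background in most mice. Hand1 probe 1 (mm9, chr11:57646257-57646316) was well above background in 2 of 8 mice, 1 of each diet, and probe 2 (chr11:57642342-57642401) in 0 of 8. Hand2, its relative in the right ventricle and outflow tract, was measured in every mouse (mm9, chr8:59803220-59803279, plus strand). It read 9.72, 10.45, 9.87 and 10.88 on normal salt and 9.95, 10.05, 9.95 and 10.29 on low salt. The normal salt mice were spread over the whole range of the low salt mice and beyond it on both sides, so the difference of -0.17 ± 0.25 had the widest interval of the 14 probes, from -0.75 to 0.40 (adjusted p = 0.815). The Cy3 mice differed by 0.15 and the Cy5 mice by -0.50. On the normal salt arrays the Cy5 mouse was above the Cy3 mouse by 0.73 and 1.01, and on the low salt arrays by 0.10 and 0.34.

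**Figure D3:**
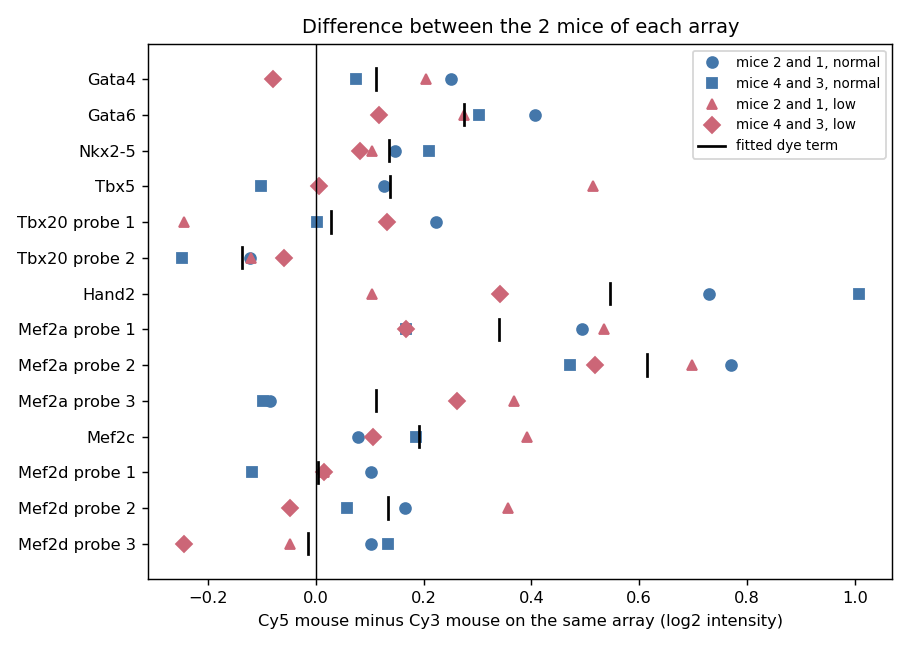
Difference of the Cy5 mouse minus the Cy3 mouse on each array (x axis, log2 intensity) for the 14 tested probes (y axis). Symbols give the array and the black tick the fitted dye term, which lay above 0 for 12 of 14 probes. Hand2 and Mef2a probe 2 have the largest differences between the mice of an array.

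Values also differed by dye. Cy5 mice were higher than Cy3 mice for 12 of 14 probes, and 3 of 14 (Gata6 and Mef2a probes 1 and 2) passed the test for dye, against 5.06% of all probes (limma). Dye and mouse lie together within any 1 array, but both diets held the same dyes. The diet difference had the same sign in the Cy3 mice as in the Cy5 mice for 10 of 14 probes.

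The Mef2 genes were read by 7 probes, and all of them were bright enough to test. For Mef2a, probe 2 (mm9, chr7:74379575-74379634, minus strand) read 10.14, 10.91, 10.22 and 10.69 on normal salt and 10.24, 10.94, 10.14 and 10.66 on low salt. The diets matched mouse by mouse within each dye, and the difference was 0.01 ± 0.13 (95% interval within -0.28 and 0.30; adjusted p = 0.987). Mef2a probe 1 (chr7:74376573-74376632) gave 0.03 ± 0.14 (adjusted p = 0.948). Probe 3 (chr7:74378751-74378810), whose sequence is 21.7% G and C, gave -0.17 ± 0.16 (adjusted p = 0.711), at -0.37 between the Cy3 mice and 0.04 between the Cy5 mice.

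Mef2c, required for heart looping and the right ventricle in the embryo, was read by a probe whose ends lie 2238 bases apart on mm9 (chr13:83772788-83775025, plus strand), so that its 60 bases cross a splice junction and read spliced RNA. Mef2d probe 3 also crosses one, over 347 bases (chr3:87972214-87972560, plus strand). Their sequences, with that of Tbx20 probe 2, are given 5′ to 3′ as the array files hold them, because these are the probes that locate spliced transcript or lie farthest from the other probes of their gene.
Mef2c: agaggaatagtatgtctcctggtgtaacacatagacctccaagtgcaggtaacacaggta
Mef2d probe 3: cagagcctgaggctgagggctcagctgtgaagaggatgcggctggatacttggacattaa
Tbx20 probe 2: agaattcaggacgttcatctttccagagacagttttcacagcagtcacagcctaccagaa

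Mef2c read 7.94, 8.02, 8.03 and 8.22 on normal salt and 7.88, 8.27, 7.92 and 8.02 on low salt. The groups lay within one another, and the difference was -0.03 ± 0.12 (95% interval from -0.31 to 0.26; adjusted p = 0.951).

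The 3 Mef2d probes did not point the same way. Probe 1 (mm9, chr3:87975777-87975836) read 12.95, 13.06, 13.01 and 12.90 on normal salt and 12.92, 12.94, 12.71 and 12.73 on low salt, with low salt mice 3 and 4 below every normal salt mouse, and differed by -0.15 ± 0.11 (adjusted p = 0.623). Probe 2 (chr3:87972971-87973030) differed by -0.01 ± 0.13 (adjusted p = 0.975). Junction probe 3 read 8.27, 8.37, 7.78 and 7.92 on normal salt and 8.45, 8.41, 8.35 and 8.11 on low salt, a difference of 0.25 ± 0.18 (adjusted p = 0.619). It was 0.01 with the array of normal salt mice 3 and 4 left out and 0.48 with that of normal salt mice 1 and 2 left out. On probe 3 the normal salt arrays themselves were apart, at mean levels of 8.32 and 7.85, while the low salt arrays were at 8.43 and 8.23. Whether the probes differ from one another in their response to diet was not tested.

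**Figure D4:**
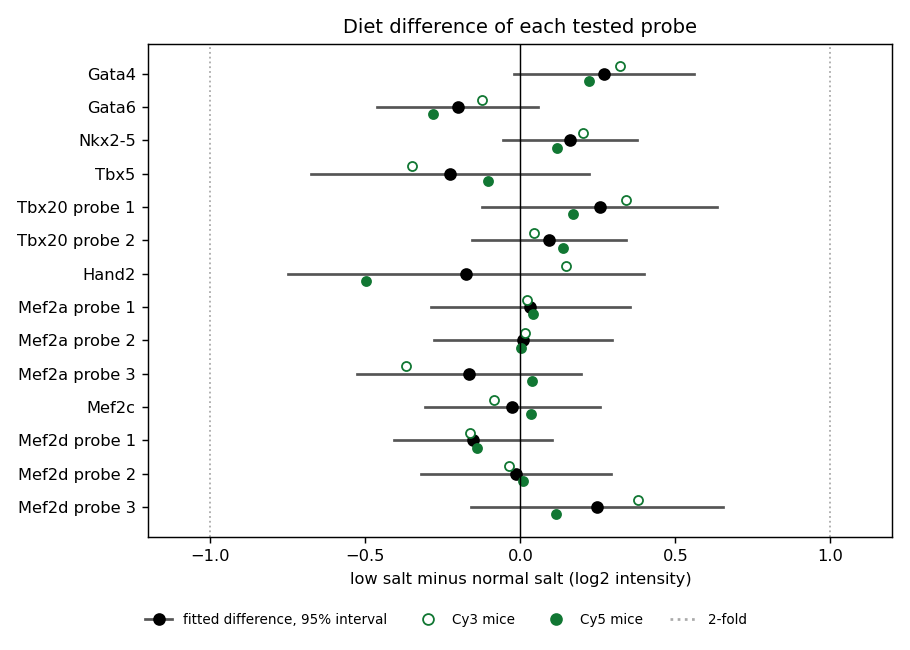
Low salt minus normal salt (x axis, log2 intensity) for each of the 14 tested probes (y axis), with the fitted difference and its 95% interval in black and the difference between the Cy3 mice and between the Cy5 mice in green. Every interval holds 0 and stays between the dotted 2-fold lines.

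Relatives of the cardiac factors spread over a wider range of differences. Of 19 listed paralogs and fellow lineage factors 16 were measured, 9 higher and 7 lower on low salt, with a median difference of 0.11 and a range from -0.68 to 0.51. None passed the test (0 of 16, limma, against 0.813% of the 18197 genes read by their brightest probe). An unadjusted p under 0.05 was found for 5 of 16, against 11.1% of all probes tested. Gata1 and Isl1 were too dim to test. Gata5, the endocardial GATA factor, read 10.17, 10.31, 10.59 and 10.43 on normal salt and 11.00, 11.02, 10.79 and 10.75 on low salt. Its groups did not overlap, as in 12.6% of the probes measured in all mice, and the difference was 0.51 ± 0.14 (adjusted p = 0.196). The 4 endocardial markers measured of 5 were lower on low salt in 4 of 4, with 0 past the test and a summed log2 level of 11.03 to 11.75 on normal salt and 10.98 to 11.20 on low salt, and their part in the Gata5 value was not tested.

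Tbx3, a repressor that holds conduction cells apart from working muscle, read 10.60, 10.90, 10.72 and 10.98 on normal salt and 10.21, 10.37, 10.16 and 9.90 on low salt. The groups did not overlap, as in 12.6% of the probes measured in all mice, with a difference of -0.64 ± 0.18 (adjusted p = 0.214). Conduction system markers, a list that holds Tbx3 itself, had 4 of 8 genes measured. With Tbx3 included, 4 of 4 were lower on low salt and 0 passed the test. Their summed log2 level was 11.18 to 11.48 on normal salt and 10.75 to 11.04 on low salt. Tbx3 was the brightest of them, so that sum largely restates Tbx3. Gja5, Cntn2 and Cacna1g differed by -0.19, -0.33 and -0.13 (limma, adjusted p = 0.651, 0.623 and 0.753), and each overlapped between the diets. Gja5 lay where neighbouring spots differed by 0.47, and with that subtracted it was -0.65 (adjusted p = 0.127). Hcn4, the pacemaker channel that defines nodal cells, was too dim to test, and the part of conduction tissue in the Tbx3 value was not tested.

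Gata2, a GATA factor of endothelial and blood cells, read 9.39, 9.40, 9.26 and 9.21 on normal salt and 8.40, 8.24, 8.80 and 9.08 on low salt. Low salt mice 1 and 2, on 1 array, were lowest, and the difference was -0.68 ± 0.20 (adjusted p = 0.253). The endothelial receptor Tek, named after the values were seen, followed the same order of arrays. It read 7.94, 7.90, 8.85 and 9.07 on low salt, against 9.07 to 9.26 on normal salt. The 12 endothelial markers did not all share that order, and Kdr ran the opposite way, at 13.16, 12.81, 12.59 and 12.59 on low salt. Their mean log2 level was 11.75, 11.59, 11.77 and 11.90 on low salt, against 11.94 to 12.32 on normal salt. The part of endothelial RNA in the Gata2 value was not tested. When low salt mice 3 and 4, which share an array, were left out, the Gata2 difference was -0.99 (adjusted p = 0.0138), a fit in which 6.04% of all probes passed. That was the most negative value of 26 alternatives, which ranged up to -0.37, and the only 1 in which Gata2 passed. Mef2b, the Mef2 relative of immune cells, differed by 0.15 ± 0.10 (adjusted p = 0.610). Of the nerve and Schwann cell markers 8 of 8 were measured, 6 lower and 2 higher on low salt, with a range from -0.60 to 0.38. In the test 0 passed, and 5 of 8 had an unadjusted p under 0.05 (limma), against 11.1% of all probes tested. Their summed log2 level was 11.97 to 12.10 on normal salt and 11.64 to 11.95 on low salt. That shift stood beside those of Gata2 and Tbx3, and its part in them was not tested.

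Proteins that work with the cardiac factors were measured for 22 of 23 listed cofactors and partners. Of these 11 were higher and 11 lower on low salt, with a median difference of 0.03. In the test 0 passed, against 0.813% of all genes read by their brightest probe. An unadjusted p under 0.05 was found for 7 of 22, against 11.1% of all probes tested. Zfpm2 (Fog2), which binds the zinc fingers of Gata4 and restrains it, differed by 0.32 ± 0.14 (adjusted p = 0.459), and its second probe by 0.19. Zfpm1 (Fog1) read 10.90, 10.88, 10.89 and 10.83 on normal salt and 11.32, 11.26, 11.12 and 11.04 on low salt, a difference of 0.31 ± 0.10 (adjusted p = 0.290), but its second probe differed by -0.10. Mbd3, a subunit of the NuRD corepressor that Fog proteins recruit, differed by 0.35 ± 0.11 (adjusted p = 0.293) and lay where neighbouring spots differed by 0.24. With the local difference subtracted it was 0.10 (adjusted p = 0.616), and the second Mbd3 probe differed by 0.12.

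Serum response factor (Srf) and its coactivator myocardin (Myocd), which share muscle promoters with Gata4 and Nkx2-5, differed by 0.24 ± 0.10 (adjusted p = 0.443) and 0.42 ± 0.17 (adjusted p = 0.418). Ankrd1, a muscle ankyrin repeat protein that acts with and downstream of Gata4, read 15.08, 15.66 and 15.00 in normal salt mice 1, 2 and 4 and 15.98, 16.10, 16.34 and 16.57 in low salt mice 1 to 4. Its spot in normal mouse 3 carried an outlier flag and was dropped. Every low salt mouse was above the normal salt mice that had a value. Among the probes measured in all mice, 12.6% had groups that did not overlap. The Ankrd1 difference was 1.1 ± 0.23 (adjusted p = 0.108).

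Among the histone deacetylases and kinases that set Mef2 activity, 19 of 20 were measured, 11 higher and 8 lower, with a median difference of 0.01. Here 1 of 19 genes passed the test, against 0.813% of all genes read by their brightest probe. It was Ppp3ca, the catalytic A-alpha subunit of calcineurin, a calcium-dependent phosphatase that activates NFAT and Mef2 in heart muscle. It read 11.07, 10.99, 10.91 and 10.85 on normal salt and 11.95, 11.76, 11.80 and 11.76 on low salt, and rose by 0.86 ± 0.10 (adjusted p = 0.0094). Its spot lay where neighbouring spots of other genes were also higher on low salt, by 0.33, and after that local difference was subtracted the rise was 0.53 (adjusted p = 0.0423). With the scanner software's own processed signal it was 0.53 (adjusted p = 0.195), and it passed under 20 of 25 alternatives in all.

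The listed target genes of the cardiac factors were all measured (36 of 36). Of these 16 were higher and 20 lower on low salt, with a median of -0.03 and a range from -1.07 to 1.51. None passed the test (0 of 36, against 0.813% of all genes read by their brightest probe). An unadjusted p under 0.05 was found for 8 of 36, against 11.1% of all probes tested. Nppb, which encodes B-type natriuretic peptide and is a classic Gata4 target, had the largest difference of the list. It read 13.56, 13.16, 13.49 and 13.87 on normal salt and 15.43, 14.77, 15.14 and 14.77 on low salt. Every low salt mouse was above every normal salt mouse, and groups did not overlap in 12.6% of the probes measured in all mice. The difference was 1.51 ± 0.27 (95% interval from 0.88 to 2.13; adjusted p = 0.0540). A fit that blocked on mouse number instead of array gave 0.0109 (limma, adjusted p). That fit treated the mice of an array as independent, although diet differed only between arrays. In it 671 of all probes passed as higher and 224 as lower, against 180 and 8 in the main fit. Gata4 itself, above, differed by 0.27.

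Nppa, which encodes atrial natriuretic peptide, differed by 0.39 ± 0.48 (adjusted p = 0.783). Its normal salt mice ranged from 14.25 to 16.14 and its low salt mice from 15.50 to 16.09. Nppa is also one of the atrial markers, whose summed log2 level was 14.78 to 17.07 on normal salt and 15.77 to 16.18 on low salt. It was the brightest of them in every mouse, so that sum partly restates Nppa itself. Gja1 is the main gap junction protein of working ventricle. It read 10.40, 10.51, 10.57 and 10.64 on normal salt and 10.82, 10.91, 10.87 and 10.98 on low salt. The groups did not overlap, and the difference was 0.36 ± 0.09 (adjusted p = 0.166). Blocking on mouse number instead of array gave 0.0406 (limma, adjusted p), with the same limit as for Nppb. Myh6, the adult cardiac myosin heavy chain, differed by 0.02 ± 0.16 (adjusted p = 0.966), and its second probe by -0.60. Cardiac actin (Actc1) differed by -0.38 ± 0.14 (adjusted p = 0.361) and lay where neighbouring spots differed by -0.26.

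**Figure D5:**
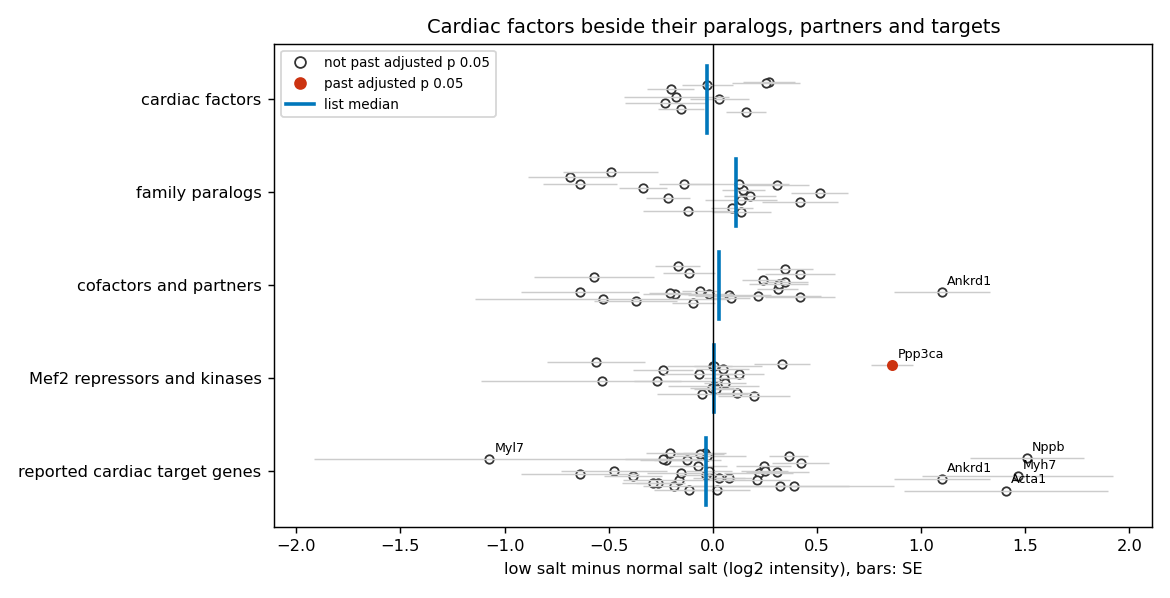
Low salt minus normal salt (x axis, log2 intensity, bars ± SE) for each measured gene of the cardiac factors and of the 4 related lists (y axis), each gene read by its brightest probe. Blue ticks are list medians and the red point, Ppp3ca, is the gene past an adjusted p of 0.05. The cardiac factors lie within 0.27 of 0, while single genes of the other lists reach -1.07 (Myl7) and 1.51 (Nppb).

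The promoters of both natriuretic peptide genes are shown because they carry the recognition letters of the factors measured here and their genes had values of unequal size. Each is the 250 bases before the RefSeq start site (GRCm38.p6, plus strand), in lower case with matches to the GATA and T-box letters in capitals. Both strands were searched, over windows of 300 bases that run from 250 bases before to 50 bases after the start site. The GATA letters were AGATAA and its variants with T first or G last. The Nkx2-5 letters were TCAAGTG and its variant with T in the second place, and the T-box letters were AGGTGT. The MEF2 motif was searched as well, with no overlap between matches in these windows.
Nppb, chr4:147985650-147985899: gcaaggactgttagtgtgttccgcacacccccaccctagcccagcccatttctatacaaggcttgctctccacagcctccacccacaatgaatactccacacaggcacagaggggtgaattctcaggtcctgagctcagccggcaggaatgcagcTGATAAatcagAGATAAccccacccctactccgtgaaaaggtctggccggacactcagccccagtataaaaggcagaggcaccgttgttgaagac
Nppa, chr4:148000472-148000721: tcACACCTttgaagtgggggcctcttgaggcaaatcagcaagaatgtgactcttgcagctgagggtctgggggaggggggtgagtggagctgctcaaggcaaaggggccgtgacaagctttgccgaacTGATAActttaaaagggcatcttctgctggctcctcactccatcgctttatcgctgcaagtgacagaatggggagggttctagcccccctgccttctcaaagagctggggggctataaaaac

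The Nppb window held a pair of GATA matches, beginning 95 and 84 bases before the start site. The Nppa window held 1 GATA match 122 bases before the start and 1 T-box match, on the other strand, 248 bases before it. Neither window held a match to the Nkx2-5 letters that were searched. The Nppa sequence does hold TGAAGTG, just after the T-box match, and GCAAGTG. These are close to TCAAGTG but were not searched, so the lack of a match holds only for the letters chosen. Of 32851 such RefSeq windows of 300 bases from 27025 genes, 29.8% held a GATA match, 13.7% a T-box match, 5.34% an Nkx2-5 match and 3.19% a MEF2 match. The table held windows for 6 of the 10 cardiac factors (Nkx2-5, Tbx20, Hand2, Mef2a, Mef2c and Mef2d), 8 windows in all. A GATA match lay in the Hand2 window, a T-box match in 1 Mef2c window and a MEF2 match in the Mef2a window, beginning 2 bases before the start site and running past it, with 0 Nkx2-5 matches. These are matches of letters, not sites of binding.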

How the data were processed

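Per the file headers, the deposited files give, for either channel, the scanned intensity of every spot and the background around it, from Agilent Feature Extraction 11.5.1.1 with protocol GE2_1105_Oct12. The authors' value table of the series was not used here. The mean spot signal was background-corrected by normexp (offset 50, fitted per channel on unflagged spots), normalised by loess within arrays and Aquantile between arrays (limma 3.58.1, statmod 1.5.0, R 4.3.3), and turned to log2. Where a local background was flagged as an outlier, the median background of the channel took its place. Controls (of 44397 spots, 43020 are not controls) and flagged spots were left out, and spots of a probe averaged. A probe entered the fit (23144 did) if 4 or more samples were well above background and each diet had 3 values. The model had fixed terms for diet and dye and a random block for array (correlation 0.55), with empirical Bayes moderation and Benjamini-Hochberg adjustment, 2-sided, at a threshold of 0.05. The fit was tested on simulated data.

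Differences are low salt minus normal salt. Listed genes were read from their brightest probe. Named in each list were the genes past the threshold, otherwise the 3 with the smallest p, and Zfpm2, Gata5, Mef2b, Myocd, Srf, Nppa, Nppb, Myh6 and Actc1 whatever their result. Other list genes were named after their values were seen. The cardiac factors and the lists were chosen with earlier results of these data known. The local difference at a spot is the median deviation of each sample from the mean of all samples over a window of 21 by 21 spots, low salt minus normal salt.

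Same-numbered mice of the diets deviated together (correlations 0.31, 0.14, 0.16 and 0.20; the dye, which the numbers share, was removed for 0.21 and 0.11). The values with the dye removed also hold the difference between the arrays of a diet. The numbers were taken to pair the mice, and a fit with the number as a block was run. That fit had no array block, so it did not allow for mice sharing an array. The labels do not say what a number marks. The number of arrays limits the precision. Alternatives were other background corrections, normalisations, filters and blocks, each dye alone, each mouse or array left out, and the local trend subtracted.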

Additional observations from a re-analysis of the deposited data

How the results depend on the processing

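No cardiac factor probe passed the threshold under any alternative run (0 throughout), and the median over their genes stayed between -0.10 and 0.03. The Gata4 difference ranged from 0.17 to 0.37, and its smallest adjusted p was 0.106, with the mouse number as a block. Gata6 ranged from -0.28 to -0.12, Nkx2-5 from 0.11 to 0.21, Tbx5 from -0.41 to -0.04, Tbx20 probe 1 from 0.10 to 0.41, Mef2d probe 1 from -0.26 to -0.05 and Mef2d probe 3 from 0.01 to 0.48.

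The sign of small differences turned under some settings, and the cause was not tested. With the scanner's processed signal Mef2a probe 1 was -0.0028 and Mef2d probe 2 was 0.068. Without normalisation between arrays Mef2a probe 1 was -0.0090 and probe 2 was -0.046. Hand2 was 0.15 in the Cy3 mice alone, and in the Cy5 mice alone Mef2a probe 3 was 0.038, Mef2c 0.033 and Mef2d probe 2 0.0069. With normal salt mice 3 and 4 (1 array) left out, Mef2a probe 2 was -0.030, Mef2c 0.046 and Mef2d probe 2 0.066. With low salt mice 1 and 2 left out, Tbx20 probe 2 was -0.016, Mef2a probe 2 -0.088 and Mef2d probe 2 0.019. Mef2c was 0.027 with low salt mice 3 and 4 left out. With the local trend subtracted Mef2a probe 1 was -0.086, probe 2 was -0.017 and Mef2d probe 2 was 0.051. Leaving out each mouse in turn gave -0.027 to 0.084 for Mef2a probe 1, -0.039 to 0.057 for probe 2, -0.091 to 0.024 for Mef2c and -0.074 to 0.054 for Mef2d probe 2.

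Counts over all probes (180 higher, 8 lower) moved more. They were 41 and 5 with the processed signal, 616 and 186 with no array block, 671 and 224 with the mouse number as a block, 45 and 13 with the local trend subtracted, and 2 and 1 in even parts of the array alone, a setting chosen after seeing the data. They were 0 and 0 without normalisation between arrays, with each array averaged, and in either dye alone. Without an array they were 270 and 75 (normal salt 1 and 2), 210 and 70 (normal salt 3 and 4), 94 and 13 (low salt 1 and 2) and 573 and 825 (low salt 3 and 4), and without each mouse 68 to 124 and 1 to 27. Of the Mef2 regulators, 0 passed with the processed signal, without normalisation between arrays, with each array averaged, and in either dye alone, and 2 (Ppp3ca, Camk2g) with the array of low salt mice 3 and 4 left out. In that fit 3 paralogs (Gata2, Tbx1, Tbx3), 4 cofactors (Zfpm1, Hopx, Smarca4, Yap1) and 4 targets (Nppb among them) passed. In even parts the count of Mef2 regulators was 0 because Ppp3ca lies outside them and was not tested. With no array block 1 paralog (Tbx3), 1 cofactor (Ankrd1) and 5 targets (Nppb, Myh7, Acta1, Gja1, Ankrd1) did. With the mouse number as a block 1 paralog (Gata3) and 3 targets (Nppb, Acta1, Gja1) did, and the block ended no call. Among targets, 1 (Nppb) passed with all 8 samples required above background and with the array of normal salt mice 3 and 4 left out, and 0 to 1 without each mouse (Nppb, without normal salt mouse 4).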
